A study of Mus musculus with 2 samples.

Results

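Krt7, Krt8, Krt18, Krt19, Upk3b, Upk1b, Msln, Lrrn4, Muc16 and Gpm6a are 10 genes whose transcripts mark simple epithelia and the mesothelial covering of organs, and here their levels were described across the somatic cells of the fetal mouse ovary. They were taken by symbol from the 27998 gene rows of both count tables, without use of any measured value, and all 10 were present. The study asked whether loss of the glucocorticoid receptor (GR, gene Nr3c1) alters the developing ovary, and captured single cells of E15.5 ovaries with the 10X Chromium 3' v3 kit. There was 1 library of each genotype. The WT library came from the ovaries of 4 pooled GR wildtype female embryos, and the KO library from those of 2 pooled female embryos with homozygous GR deletion. The KO allele was made by crossing mice with a floxed exon 3 of Nr3c1 to a line that expresses Cre constitutively from the beta-actin promoter, so the gene was lost in every tissue of the embryo and not only in the ovary. Both groups carried the Pou5f1-GFP (Oct4-GFP) transgene, and the labels give the strain of both as Tg(Pou5f1-EGFP)2Mnn Nr3c1tm1.1Jda. GFP-positive germ cells were sorted and mixed with somatic cells at 60 to 40 after the mesonephroi had been removed, so the share of each cell class was set by the sort and was not compared.

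Keratins are intermediate filament proteins that polymerize only as pairs of a type II and a type I chain, and Krt8 with Krt18 is the usual first pair of simple epithelia, joined in many of them by Krt7 and Krt19. The surface of the ovary is covered by a single epithelial layer that derives from the coelomic epithelium and shares its character with the mesothelium of the body cavity. In the fetal ovary this layer is also a source of pregranulosa cells, the supporting cells that later enclose the oocytes, and Lgr5 marks the supporting cells that arise near the surface. The question here was which of the 10 transcripts the pregranulosa cells held as well, and at what level.

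In the GENCODE M21 annotation of GRCm38, the 3 keratin genes Krt7 (ENSMUSG00000023039, chr15:101411043-101430313, plus strand), Krt8 (ENSMUSG00000049382, chr15:101996698-102004482, minus strand) and Krt18 (ENSMUSG00000023043, chr15:102028180-102032027, plus strand) lie on chromosome 15. Krt8 and Krt18 are transcribed away from each other, 23697 bases apart. Krt19 (ENSMUSG00000020911) lies at chr11:100140810-100148665 on the minus strand, apart from its type II partners. Upk3b (ENSMUSG00000042985) lies at chr5:136038496-136046487 and Muc16 (ENSMUSG00000109564) at chr9:18495455-18674530. All 10 are protein-coding, and a search of their last 600 transcript bases against all other genes (matches of 200 bases, 95% identity) found no close copy that could share their 3' tags.

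Promoter sequence was taken from RefSeq (GRCm38.p6) for genes at the ends of the pattern described below: Krt8 and Krt18, which were also present in pregranulosa cells, and Upk3b and Muc16, which were scarce outside the epithelium. Each is the stretch before the transcription start that lies outside the annotated gene, written 5' to 3' on the gene's strand, at chr15:102004483-102004592 (Krt8), chr15:102027966-102028179 (Krt18), chr5:136038246-136038495 (Upk3b) and chr9:18674604-18674853 (Muc16). Capitals mark a match to a searched motif or its reverse complement.

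Krt8: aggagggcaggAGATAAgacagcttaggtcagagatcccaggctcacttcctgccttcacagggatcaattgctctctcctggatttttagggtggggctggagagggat

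Krt18: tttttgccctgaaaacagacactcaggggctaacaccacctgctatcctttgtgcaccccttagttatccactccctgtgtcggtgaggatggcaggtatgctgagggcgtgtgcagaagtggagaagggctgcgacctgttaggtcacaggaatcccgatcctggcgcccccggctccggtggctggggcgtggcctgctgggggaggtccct

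Upk3b: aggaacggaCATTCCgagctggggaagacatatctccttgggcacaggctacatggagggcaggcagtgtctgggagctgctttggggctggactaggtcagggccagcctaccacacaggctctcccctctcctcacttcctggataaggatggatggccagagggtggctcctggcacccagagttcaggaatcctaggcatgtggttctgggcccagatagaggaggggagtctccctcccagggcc

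Muc16: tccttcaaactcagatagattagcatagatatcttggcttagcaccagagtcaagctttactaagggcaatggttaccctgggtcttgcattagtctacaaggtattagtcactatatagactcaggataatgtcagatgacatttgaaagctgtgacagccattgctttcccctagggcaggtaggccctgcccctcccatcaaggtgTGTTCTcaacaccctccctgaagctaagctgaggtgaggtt

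The motifs were searched on both strands of the 250 bases before each start. A TEAD site (GGAATG) was found before Upk3b, Lrrn4 and Gpm6a and in 12.6% of 32851 RefSeq promoters. A GATA site (AGATAA) was found before Krt8 and in 9.99% of promoters, and a glucocorticoid receptor half-site (AGAACA) before Muc16 and Gpm6a and in 16.1%. The full glucocorticoid response element (AGAACA, any 3 bases, then TGTTCT) was found before none of the 7 genes with a promoter in the table and in 0.00913% of all promoters. The TATA box (TATAAA, 12.4% of promoters) was found before Gpm6a only and the GC box (GGGCGG, 32.7%) before Krt7 only, and no searched motif was found before Krt18. These matches describe letters in the window and not bound sites.

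The WT library held 11430 barcodes and 168483330 UMIs, of which 9045 cells passed the study's limits, and the KO library held 17829 barcodes and 186117981 UMIs, of which 15502 cells passed. The median depth was 15685 UMIs per kept WT cell and 10194.5 per kept KO cell. Nr3c1 fell from 26.2 to 6.34 counts per 1000000 UMIs (CPM) in pregranulosa-like cells and from 27.0 to 6.44 in epithelium-like cells, and its reads outside exon 3 can remain in KO. Scrublet called 2.60% of WT and 6.60% of KO cells doublets, and 75 deposited barcodes (27 of kept cells) occurred in both libraries. With 1 library per genotype no test of genotype was possible. The intervals given are 95% and cover counting error only, not the variation between embryos.

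Cells were clustered with the 10 genes left out, and clusters were named from marker lists that contained none of them. The epithelium-like cluster held 399 WT and 1080 KO cells and was named on Aldh1a1, Aldh1a2, Bnc1, Pdpn, Podxl, Bcam and Ezr, which are 7 of its 12 markers. Of the other markers Slpi was at 0 in both libraries. Among the 10 genes with the highest fold in this cluster were Krt19, Upk3b, Krt18, Krt8 and Krt7, together with the stress-response gene Atf3 and the metallothioneins Mt1 and Mt2. Markers of mesonephric or rete epithelium, the other epithelium near the fetal ovary, summed to 155 CPM in WT and 139 CPM in KO, of which only Epcam exceeded 10 CPM, and Cdh16 was at 0 in KO. The pregranulosa-like cluster (942 WT and 2045 KO cells) was named on 8 of 9 markers, among them Fst, Wnt4, Irx3 and Amhr2, and the stroma-like cluster (838 and 1932 cells) on 9 of 11, among them Col1a1, Pdgfra and Tcf21. The pregranulosa marker that did not pass was Foxl2. Germ-like cells (6790 and 10205) served as a reference class outside the soma. Whether their UMIs of the 10 genes were free RNA or transcripts of their own was not tested. Markers of germ cells were present in every somatic class, at 904 CPM in WT and 1175 CPM in KO epithelium, 1101 and 1719.6 CPM in pregranulosa and 1428 and 2360.4 CPM in stroma, and doublets made up 5.01%, 5.31% and 6.80% of the WT and 10.8%, 11.6% and 13.9% of the KO cells of these classes.

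Among these 4 classes all 10 genes were highest in the epithelium-like cells, in both libraries. The keratins formed a graded series, high in epithelium, intermediate in pregranulosa and low in stroma, while the 6 other genes were at 3.02 CPM or lower in pregranulosa, stroma and germ-like cells. By ratio the 2 sets overlapped. The log2 ratio of epithelium to pregranulosa was 4.44 in WT and 3.71 in KO for Upk1b, and 4.22 and 4.23 for Lrrn4. It was 3.46 and 2.95 for Msln, beside 4.35 and 4.43 for the keratin Krt19. Upk3b, Muc16 and Gpm6a fell further than Krt19. The type II keratin Krt8 was measured at 498 CPM in WT and 467 CPM in KO epithelium, at 129.8 and 149 CPM in pregranulosa, and at 7.37 and 10.7 CPM in stroma. Krt7, the other type II chain, stood at 221 and 198 CPM in epithelium, 40.1 and 38.0 CPM in pregranulosa and 1.94 and 3.07 CPM in stroma. For both genes the 3 classes were separated in each library by more than their counting intervals.

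Of the type I chains, Krt18, the partner of Krt8, was measured at 626 CPM in WT and 576 CPM in KO epithelium, 91.8 and 114 CPM in pregranulosa and 6.75 and 9.86 CPM in stroma. Krt19, the shortest keratin, which lacks most of the tail domain, reached 582 and 485 CPM in epithelium and only 28.5 and 22.5 CPM in pregranulosa. Its fall between these classes was thus 20.4-fold in WT (interval 18.3 to 22.8) and 21.6-fold in KO (19.6 to 23.8). The same fall was 3.83-fold and 3.13-fold for Krt8, 5.51-fold and 5.22-fold for Krt7, and 6.81-fold and 5.07-fold for Krt18. The order of the keratins by how far they fell was Krt8, Krt7, Krt18 and Krt19 in WT, and in KO Krt7 and Krt18 did not differ beyond their intervals (4.81 to 5.67 and 4.84 to 5.32).

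Of the surface genes, Upk3b is a uroplakin first known from the urothelial plaque and a marker of mesothelium. Its UMIs made up 317 CPM in WT and 313 CPM in KO epithelium but 2.27 and 3.02 CPM in pregranulosa, a difference of 139-fold (96.7 to 209) and 104-fold (80.2 to 136). Upk1b, a tetraspanin uroplakin, was measured at 25.5 and 22.7 CPM in epithelium and 1.18 and 1.74 CPM in pregranulosa. The other uroplakins on the companion list (Upk1a, Upk2, Upk3a and Upk3bl) had fewer than 100 UMIs over both classes and libraries, so the urothelial set was not present as a whole.

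Muc16, the large membrane mucin known as CA125, was measured at 58.9 CPM in WT and 48.7 CPM in KO epithelium and at 0.784 and 1.07 CPM in pregranulosa, 75.2-fold and 45.3-fold lower. Its binding partner Msln (mesothelin), a GPI-anchored protein of adult mesothelium, was scarcely detected, with 19 UMIs in WT and 37 UMIs in KO epithelium (2.58 and 2.77 CPM). It had 3 and 7 UMIs in pregranulosa and 0 UMIs in stroma in both libraries. Lrrn4, a leucine-rich repeat membrane protein used as a marker of mesothelial cells, stood at 21.9 and 24.0 CPM in epithelium and 1.18 and 1.28 CPM in pregranulosa. Gpm6a, a proteolipid-family membrane glycoprotein best known from neurons, was measured at 19.2 and 17.5 CPM in epithelium but with 1 UMI in WT and 3 UMIs in KO pregranulosa, which gives ratios of 244 (43.2 to 9721) and 114 (38.6 to 557).

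**Figure D1:**
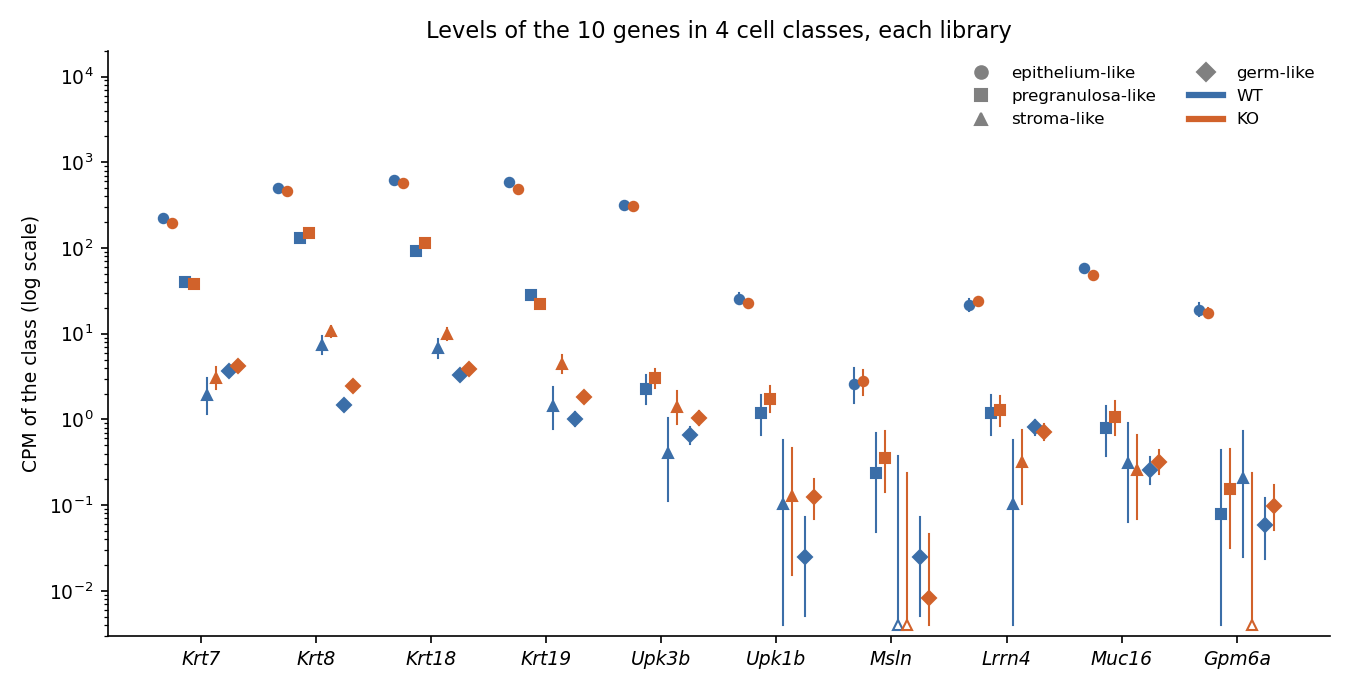
Level of each gene in CPM (log axis) in epithelium-like (circles), pregranulosa-like (squares), stroma-like (triangles) and germ-like (diamonds) cells of the WT (blue) and KO (orange) library, with 95% counting intervals as bars. Open symbols are classes with 0 UMIs. The keratins step down from epithelium to pregranulosa to stroma, whereas Upk3b drops from 317 to 2.27 CPM between the first pair in WT.

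By the fixed rule (2-fold or more, at least 100 UMIs over both classes), 9 genes were higher in epithelium than in pregranulosa in each library, where 6.13% of all genes tested in WT and 6.53% in KO were, and Msln was below the limit of UMIs. Only the 4 keratins had 100 UMIs in pregranulosa alone. The other 5 passed the limit only through the epithelium, so the count is a description and is not read against the share of all genes. Against stroma 9 genes were higher in epithelium in each library (6.36% of all genes in WT and 7.33% in KO), but in WT none of them and in KO only Krt8 and Krt18 had 100 UMIs in stroma. The epithelium exceeded stroma 407-fold and 108-fold for Krt19, 774-fold and 222-fold for Upk3b, and 192-fold and 189.9-fold for Muc16. These ratios rest on few stromal UMIs, and with the same cell limits for both libraries the log2 ratio of Upk3b was 7.17 in WT and 6.46 in KO in place of 9.60 and 7.80. Msln was at least 8.41-fold higher in WT and at least 14.4-fold higher in KO against a floor of 3 UMIs over the stroma of a library.

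The 4 keratins were the genes that pregranulosa held with at least 100 UMIs. Each was higher there than in stroma in both libraries by the same rule, by which 11% of all genes in WT and 10.7% in KO were higher. In WT none of the 4 and in KO only Krt8 and Krt18 had 100 UMIs in stroma, so this count too is a description. The difference was 17.6-fold in WT and 14.0-fold in KO for Krt8, 13.6-fold and 11.5-fold for Krt18, 20.6-fold and 12.3-fold for Krt7, and 19.9-fold and 5.01-fold for Krt19. Without the called doublets the log2 ratio of Krt19 in KO was 3.67 in place of 2.33. For Upk3b it was 5.55-fold (1.95 to 21.7) in WT and 2.14-fold (1.29 to 3.67) in KO, on 29 and 59 UMIs in pregranulosa. With the same cell limits for both libraries its direction turned, with log2 ratios of -0.029 in WT and -0.68 in KO. Upk1b, Lrrn4 and Muc16 were also higher in pregranulosa than in stroma, on too few UMIs for a call. Their log2 ratios were 3.52, 3.52 and 1.35 in WT and 3.76, 2.00 and 2.07 in KO. Gpm6a was lower in WT pregranulosa, at -1.385, and the WT intervals of Muc16 and Gpm6a included 0.

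With every cell thinned to 3000 UMIs, Krt8 was seen in 27.0% of WT and 31.8% of KO pregranulosa-like cells and in 0.427% and 0.686% of germ-like cells. Without thinning these shares were 63.6% and 62.5% in pregranulosa (median depth 12653.5 and 8502 UMIs) and 2.16% and 2.66% in germ-like cells (17100.5 and 11317 UMIs). Thinned Krt18 was seen in 20.8% and 26.6%, Krt7 in 10.5% and 10.5% and Krt19 in 5.84% and 5.72% of pregranulosa-like cells, all above the thinned share of germ-like cells, which did not exceed 1.41% for any keratin. Upk3b was seen in 0.955% and 0.733% of thinned pregranulosa-like cells and 0.206% and 0.294% of germ-like cells, and in 2.55% and 1.86% against 1.16% and 1.22% without thinning. In epithelium-like cells (median depth 16895 and 11247.5 UMIs) the thinned shares were 73.2% and 69.6% for Krt8, 73.7% and 73.9% for Krt18, and 56.6% and 55.1% for Upk3b, and 95.2% and 92.0%, 96.5% and 92.7%, and 92.7% and 86.9% without thinning.

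The composition of the keratin transcripts also differed between the classes. Krt8 UMIs per Krt18 UMI were 0.796 in WT and 0.811 in KO epithelium and rose to 1.41 and 1.32 in pregranulosa, with no overlap of the counting intervals (0.762 to 0.831 against 1.31 to 1.52 in WT). Krt7 per Krt19 was 0.379 and 0.408 in epithelium and 1.41 and 1.69 in pregranulosa. In germ-like cells Krt8 per Krt18 was 0.446 and 0.630, and Krt7 per Krt19 was 3.62 and 2.29. Upk3b per Krt18 was 0.506 and 0.544 in epithelium, 0.0247 and 0.0266 in pregranulosa, and 0.198 and 0.268 in germ-like cells. Of the germ-like Krt18 UMIs, 179 of 399 in WT and 160 of 473 in KO came from germ cell cluster 9, and without it Upk3b per Krt18 was 0.350 (0.266 to 0.456) and 0.367 (0.294 to 0.456) in germ-like cells. Without this cluster, germ-like Krt8 per Krt18 was 0.705 and 0.799, and Krt7 per Krt19 was 3.67 and 2.43. Taken as a whole class, the keratin transcripts of pregranulosa thus had another composition than those of the epithelium in the same library. This did not hold for Krt8 per Krt18 in the KO pregranulosa-like cells without Lgr5 (described below). There it was 0.789 (0.625 to 0.995), close to the 0.811 of KO epithelium.

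The number of the 10 genes seen per thinned cell had a median of 4 in WT and 3 in KO epithelium, 0 and 1 in pregranulosa and 0 in stroma of either library. At least 3 of the genes were seen in 75.9% and 73.1% of epithelium-like cells, in 2.34% and 3.67% of pregranulosa-like cells and in 0% and 0.104% of stroma-like cells. Both Krt8 and Krt18 were seen in 59.4% and 56.8% of epithelium-like, 8.07% and 11.1% of pregranulosa-like and 0.239% and 0.311% of stroma-like cells. In epithelium, 1.5% and 2.5% of cells showed none of the genes at this depth. Without thinning the medians were 6 and 5 in epithelium, 2 and 2 in pregranulosa and 0 and 0 in stroma.

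**Figure D2:**
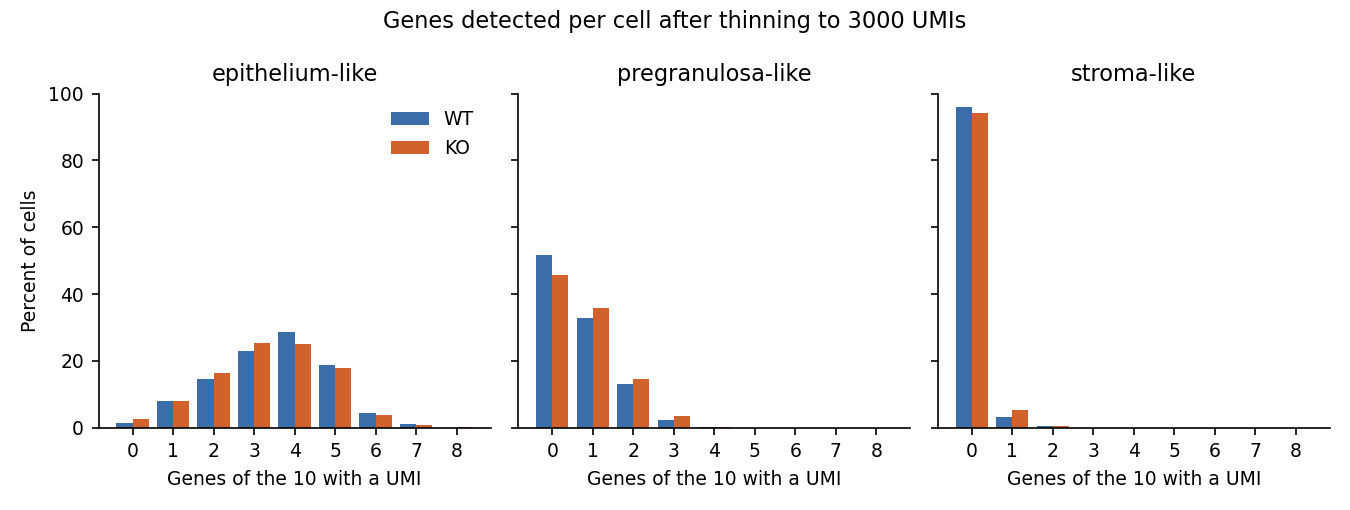
Percent of cells (vertical axis) by the number of the 10 genes with a UMI (horizontal axis) after thinning each cell to 3000 UMIs, for epithelium-like, pregranulosa-like and stroma-like cells of WT (blue) and KO (orange). Most stroma-like cells show none (96.1% in WT and 94.2% in KO), and the epithelial cells centre on 3 to 4 genes.

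Finer clustering divided the pregranulosa-like cells into a cluster with Lgr5 (723 WT and 1721 KO cells, Lgr5 at 117 and 106 CPM) and a smaller cluster without it (213 and 318 cells, 7.34 and 10.6 CPM). Foxl2 was low in both, at 2.36 and 2.02 CPM with Lgr5 and 9.78 and 6.06 CPM without. The keratins were higher in the cells with Lgr5. Krt7 was measured at 48.0 CPM in WT and 43.2 CPM in KO with Lgr5 and 8.56 and 5.30 CPM without, 5.61-fold and 8.15-fold apart. Krt19 stood at 32.5 and 25.4 CPM with Lgr5 and at 11 and 4.17 CPM without. Krt8 fell from 145 and 165 CPM to 68.9 and 51.1 CPM, and Krt18 from 103 and 122 CPM to 48.5 and 64.8 CPM. By the 2-fold rule 4 keratins were higher with Lgr5 in WT and 3 in KO, where Krt18 was 1.88-fold higher, and the share of all genes was 3.85% and 4.61%. Of these only Krt8 and Krt18 had 100 UMIs in the cells without Lgr5. In WT 11 of the 27 Krt19 UMIs without Lgr5 came from 1 cell, and without that cell Krt19 was at 6.55 CPM there. Upk1b was at 0 UMIs in the cells without Lgr5 of both libraries, beside 15 and 34 UMIs in the cells with it, which were more numerous. Upk3b differed in direction between the libraries. In WT it was at 1.87 CPM with Lgr5 (19 UMIs) and 4.08 CPM without (10 UMIs). In KO it was at 3.26 CPM (55 UMIs) and 1.52 CPM (4 UMIs). Germ markers summed to 901 CPM in WT and 1547 CPM in KO cells with Lgr5 and 1644 and 2798 CPM without, and 4.84% and 10.9% against 5.63% and 15.4% of the cells were called doublets. Their part in these differences was not tested.

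**Figure D3:**
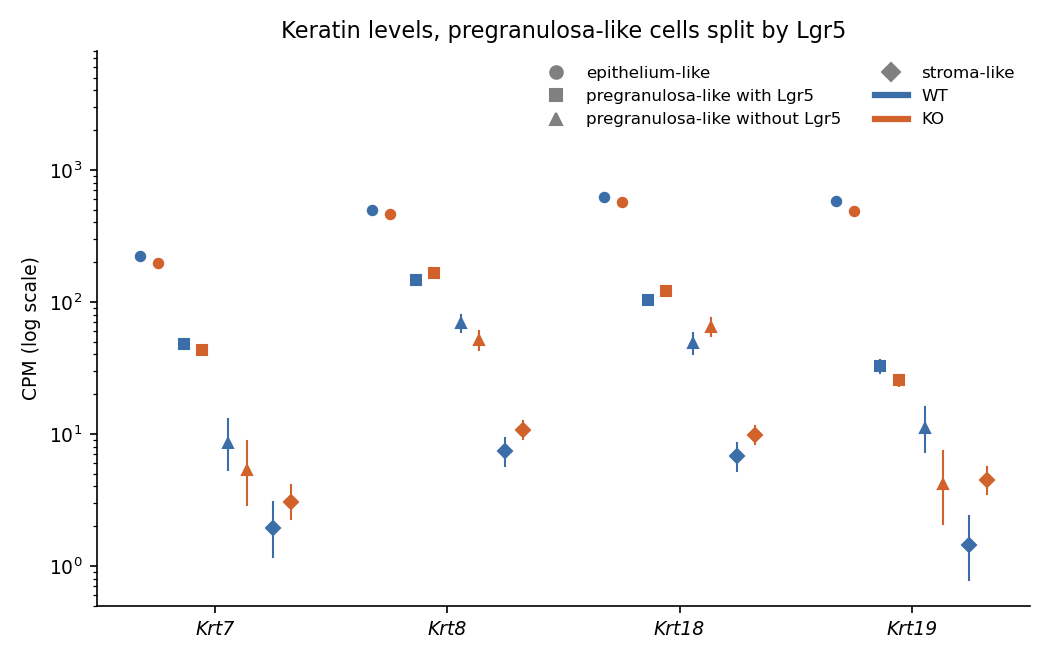
Level of the 4 keratins in CPM (log axis) in epithelium-like cells (circles), pregranulosa-like cells with Lgr5 (squares) and without (triangles) and stroma-like cells (diamonds) of WT (blue) and KO (orange), with 95% counting intervals. Krt8 and Krt18 without Lgr5 remain above stroma, at 68.9 and 48.5 CPM in WT. Krt19 without Lgr5 lies at the stromal level in KO (4.17 and 4.48 CPM) but above it in WT (11 and 1.43 CPM). Without called doublets Krt19 in KO stroma is 1.96 CPM.

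Within pregranulosa the Krt19 UMIs, 364 in WT and 439 in KO, came from 136 of 942 and 207 of 2045 cells, of which 22 and 16 held 5 or more. The 512 and 742 UMIs of Krt7 came from 309 and 528 cells, of which 5 and 3 held as many. Cells with a UMI of any of the 6 surface genes made up 5.94% of WT and 5.33% of KO pregranulosa-like cells, and in them Krt19 was 50 and 47.3 CPM against 27.0 and 20.7 CPM in the rest. The remaining cells were 94.1% and 94.7% of all and held 88.5% and 86.3% of the Krt19 UMIs and 91.1% and 92.4% of the Krt8 UMIs. The source of these UMIs was not tested. Such a division picks deeper cells, and 5.36% of WT and 22% of KO cells with a surface gene UMI were called doublets.

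In stroma all 10 genes were low, and the KO values were the higher ones for the keratins. Krt7 was lower in stroma (1.94 CPM in WT and 3.07 CPM in KO) than in germ-like cells (3.69 and 4.17 CPM). Krt8 had 72 UMIs in WT and 167 UMIs in KO, Krt18 66 and 154, Krt7 19 and 48, and Krt19 14 and 70. The stromal cells that were not cycling carried most of them, with Krt8 at 8.62 and 16.6 CPM and Krt19 at 1.55 and 5.87 CPM, while Krt8 was 4.54 and 2.49 CPM in cycling stromal cells and 3.13 and 4.34 CPM in the perivascular-like cluster. The perivascular-like cluster held 37.9% WT and 60.1% KO doublet calls. In KO stroma, 25 cells with a UMI of a surface gene (36.0% of them called doublets) held 37.1% of the Krt19 UMIs, at 98.2 CPM against 2.87 CPM in the other cells. When called doublets were left out, Krt8 was 5.62 CPM in WT and 5.71 CPM in KO stroma, Krt18 5.74 and 5.26 CPM, and Krt19 0.838 and 1.96 CPM.

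Between the genotypes, no gene of the 10 passed the study's limit of size (a difference of 0.25 in the natural log of counts per 10000 plus 1) in any class. In epithelium 0 of 9 genes with at least 100 UMIs passed, where 0.2% of all genes did. In pregranulosa 0 of 4 passed, where 0.243% of all genes did, and in stroma 0 of 2, where 0.384% did. On this scale a gene of low level in both libraries cannot reach the limit, so the log2 ratios are given beside it.

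In epithelium 8 of the 10 log2 KO/WT ratios were below 0, and for 5 of them the counting interval lay below 0. The largest of these were Muc16 at -0.28 (-0.45 to -0.10) and Krt19 at -0.26 (-0.32 to -0.21), followed by Krt7 at -0.16 (-0.25 to -0.07), Krt18 at -0.12 (-0.17 to -0.07) and Krt8 at -0.09 (-0.15 to -0.03). Upk3b was at -0.02 (-0.09 to 0.06), and the intervals of Upk1b, Lrrn4, Gpm6a and Msln included 0 as well. All 10 lay inside the range that held the central 95% of genes tested in epithelium, -0.41 to 0.48, around a median of 0.03. Without the called doublets Krt8 was at -0.03 and Krt18 at -0.05, while Krt19 remained at -0.20.

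In pregranulosa the keratins went in both directions. Krt18 was higher in KO by 0.31 on the log2 scale (0.20 to 0.41) and Krt8 by 0.20 (0.11 to 0.29), whereas Krt19 was at -0.34 (-0.55 to -0.14) and Krt7 at -0.08 (-0.24 to 0.09). The central range of all genes was -0.49 to 0.54. In the cells with Lgr5 the values were close to these, at 0.24 for Krt18, 0.18 for Krt8 and -0.35 for Krt19. In the few cells without Lgr5 Krt8 was at -0.43 (-0.77 to -0.09), Krt18 at 0.42 (0.07 to 0.77) and Krt19 at -1.40 (-2.56 to -0.34). Without the WT cell with 11 UMIs Krt19 was at -0.65 (-1.91 to 0.55). Krt8 per Krt18 was accordingly 1.42 (1.12 to 1.81) in WT and 0.789 (0.625 to 0.995) in KO cells without Lgr5. Germ markers and doublet calls were also higher in KO pregranulosa, as given above, and their part in these values was not tested. Without the called doublets Krt8 was 139 and 169.6 CPM and Krt18 96.9 and 130.0 CPM.

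In stroma the log2 ratio was 0.54 (0.13 to 0.96) for Krt8, 0.55 (0.12 to 0.99) for Krt18, 1.65 (0.80 to 2.59) for Krt19 and 1.78 (0.23 to 3.78) for Upk3b. Krt19 and Upk3b were below the limit of UMIs for a call in stroma. Without the called doublets the ratio was 0.02 for Krt8 and -0.13 for Krt18, whereas Krt19 was still higher in KO, at 1.23. Upk3b was then at 0.479 CPM in WT (4 UMIs) and 0.803 CPM in KO (9 UMIs). The part of doublets in these differences was not tested.

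**Figure D4:**
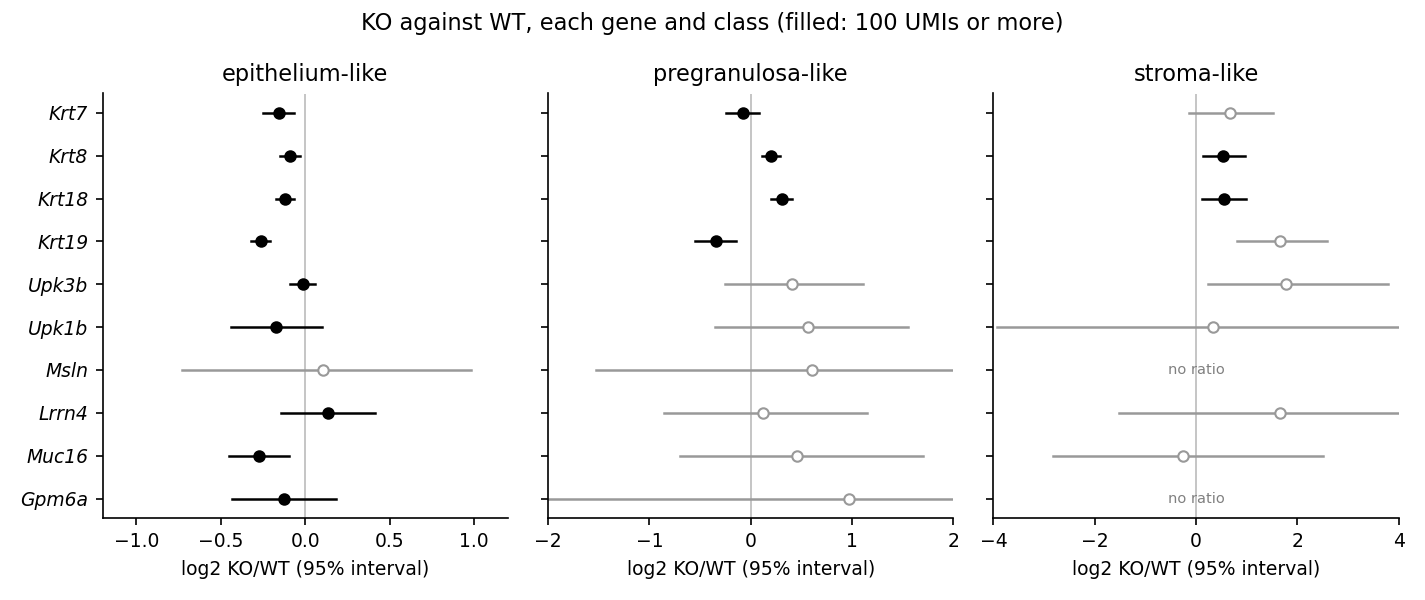
Log2 ratio of KO to WT (horizontal axis) for each gene in epithelium-like, pregranulosa-like and stroma-like cells, with 95% counting intervals, which are drawn only to the limits of each panel. Filled black points have at least 100 UMIs over both libraries, grey open points fewer, and the axis differs between panels. Krt19 lies below 0 in epithelium and pregranulosa, whereas Krt8 and Krt18 lie below 0 in epithelium and above it in pregranulosa.

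The epithelium-like cells were divided further into 7 sub-clusters, again with the 10 genes left out, to see whether they varied within the layer. Sub-clusters 0 and 1 were not cycling, 2 showed S phase histone genes, 4 showed G2/M genes, 3 carried germ cell transcripts (51.4% of WT and 70.7% of KO cells called doublets), 5 carried stromal genes, and 6 was led by Cd83, Stra6 and Tbx2. All 7 were present in both libraries, with 13 to 125 WT and 27 to 436 KO cells, and Krt8, Krt18, Krt19, Krt7 and Upk3b were found in each. Between the lowest and the highest sub-cluster Krt7 varied 2.19-fold in WT and 2.53-fold in KO, Upk3b 2.34-fold and 2.53-fold, and Krt8 3.63-fold and 3.99-fold. The highest level of Krt8 was in the G2/M cells, 669 CPM in WT and 749 CPM in KO, where Krt7 was low at 137 and 155 CPM and Lrrn4 lowest, at 11 and 8.63 CPM. There Krt8 per Krt18 was 1.05 (0.932 to 1.17) and 1.11 (1.02 to 1.21), against 0.649 to 0.876 across the other 6 sub-clusters and both libraries.

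Sub-cluster 5, with stromal genes, had the lowest Krt8 (185 CPM in WT and 188 CPM in KO) and Krt18 (245 and 259 CPM) but kept Upk3b at 252 and 248 CPM. Upk1b (50.7 and 48.6 CPM) and Msln (14.2 and 9.44 CPM, on 7 UMIs in each library) were at their highest there, although 6 of the 7 WT Msln UMIs came from 1 cell, and Lrrn4 reached 49.9 CPM in KO against 20.3 CPM in WT. Its stromal markers summed to 4580.1 CPM in WT and 4519 CPM in KO, as high as in the stroma-like class (4346 and 3729 CPM), and 2.86% and 13.0% of its cells were called doublets. In sub-cluster 3, with germ cell transcripts, all 10 genes were below the level of the whole epithelium in both libraries.

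The KO to WT ratio of Krt19 was below 0 in 5 of the 7 sub-clusters. On the log2 scale it was -0.29 (-0.40 to -0.18) in sub-cluster 1, -0.41 (-0.60 to -0.22) in 3, -0.20 (-0.35 to -0.05) in 4, -0.36 (-0.66 to -0.06) in 5 and -0.89 (-1.31 to -0.48) in 6. It was 0.15 (0.03 to 0.28) in sub-cluster 0 and 0.04 (-0.11 to 0.19) in sub-cluster 2. Sub-cluster 1, which had the most Krt19 (806 CPM in WT and 659.6 CPM in KO), made up 31.3% of the WT but 10.1% of the KO epithelium, and sub-cluster 0 21.8% and 40.4%. The ratio over the whole epithelium therefore includes this difference in makeup. Sub-cluster 0 was led by haemoglobin transcripts, with Hbb-y at 207 CPM against 3.16 CPM in the other epithelium-like cells. Erythroid markers summed to 35.3 CPM in WT and 224 CPM in KO epithelium, and their part in the makeup was not tested. No gene of the 10 with at least 100 UMIs was 2-fold or more higher in KO in any sub-cluster. In sub-cluster 6 (13 WT and 27 KO cells) Krt19 was lower in KO by more than the limit of size, on 115 WT and 89 KO UMIs. Differences between sub-clusters were not tested.

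**Figure D5:**
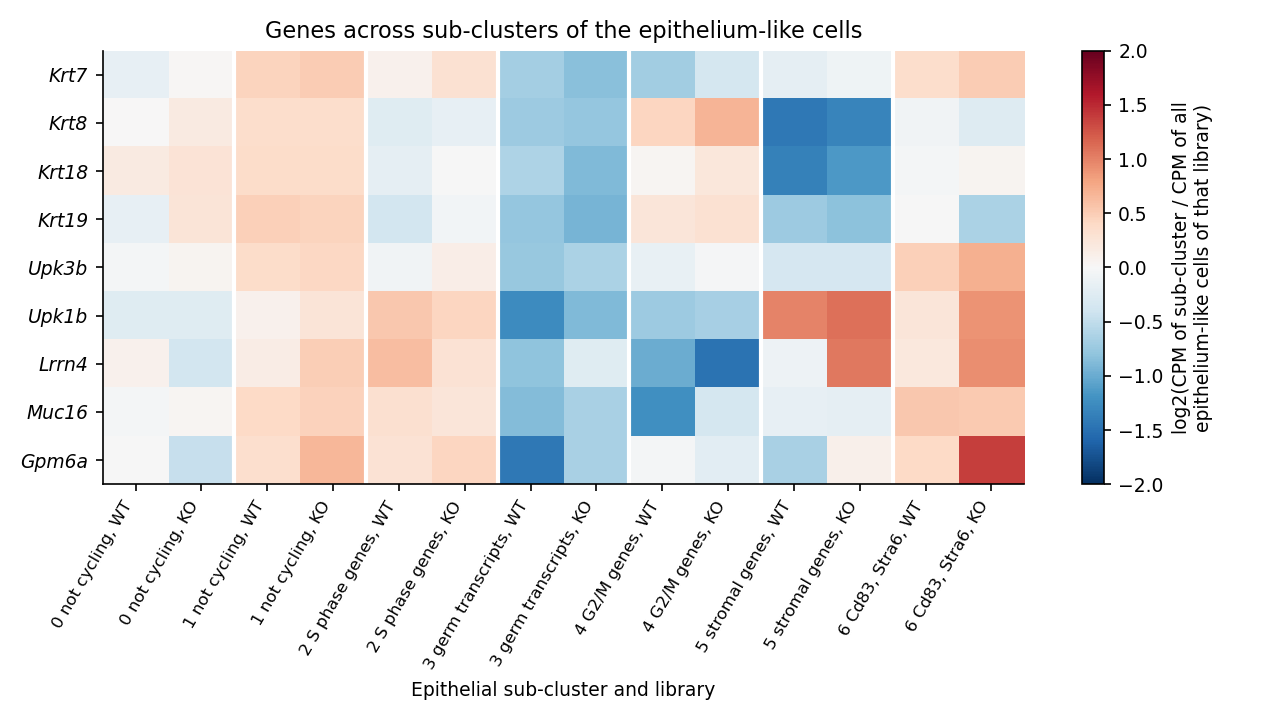
Log2 ratio of the level in each epithelial sub-cluster to that of all epithelium-like cells of the same library (colour), for 9 genes (rows; Msln is left out for its few UMIs) and 7 sub-clusters in WT and KO (columns). The germ transcript columns are blue throughout, Krt8 is raised in the G2/M columns, and the stromal gene columns have low Krt8 and Krt18 with raised Upk1b.

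Companion genes of the same families did not all share the pattern. Of 40 listed genes, 21 had at least 100 UMIs in epithelium and pregranulosa together, which a gene could reach through a single class, and 8 of these were 2-fold or more higher in epithelium in both libraries, 4 were higher in pregranulosa and 9 were neither. Krt14 (19.3 CPM in WT and 18.1 CPM in KO epithelium) and Krt17 (26.5 and 23.5 CPM), keratins of basal and stratified epithelia, were nearly absent from pregranulosa (Krt14 at 0.0784 and 0 CPM, Krt17 at 0.0784 and 0.102 CPM). Krt20, a keratin of gut epithelium and urothelium, was present in both, at 6.25 and 6.96 CPM in epithelium and 11.8 and 13.0 CPM in pregranulosa. Krt10 was found in every class. Dsp (desmoplakin), which anchors keratin filaments to desmosomes, was at 9.10 and 8.98 CPM in epithelium and 1.80 and 1.74 CPM in pregranulosa, whereas Dst (dystonin) was at 19 and 16.3 CPM in epithelium and 94.7 and 59.3 CPM in pregranulosa. Vim (vimentin), the filament protein of mesenchymal cells, was at 772 and 701 CPM in epithelium beside 651 and 658 CPM in pregranulosa. Lrrn1, a relative of Lrrn4, took the opposite course, at 22 and 22.8 CPM in epithelium and 64.2 and 51.5 CPM in pregranulosa. No companion gene passed the limit of size between KO and WT in any class, but genes of low level cannot reach it. The log2 KO/WT ratio of Dst in pregranulosa was -0.67, outside the central range of -0.49 to 0.54. Dsc2 was at -1.54 in epithelium (7.20 and 2.47 CPM). In stroma Dsp was at 1.65 (0.307 and 0.961 CPM) and Dsg2 at 1.02 (0.409 and 0.833 CPM). Both had far fewer than 100 UMIs over the stroma of both libraries. Doublet calls were more frequent in KO stroma, as given above, and their part was not tested.

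The genes whose levels ran most like the mean of the 10 were sought over 25 cluster and library units among 10006 genes. Lgals2 (r = 0.97), Gbp2b (0.96), Myo15b (0.95), Ildr2 (0.95) and Smim6 (0.95) came first, followed by Fndc1, Tspan8, Sowahd, Pcnxl2 and 4930502E18Rik (0.93 to 0.94). Lgals2 was measured at 86.1 CPM in WT and 85.1 CPM in KO epithelium and 1.80 and 2.71 CPM in pregranulosa, and Tspan8 at 34.5 and 27.3 CPM against 0.940 and 0.921 CPM. The units share libraries and depth, and r is given as a description.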

How the data were processed

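Deposited counts were whole-number UMIs per gene and cell barcode that the authors made with 10X Cell Ranger (3.0.2 in the matrix header) on mm10, 1 matrix per library, and the submitters' notes name Seurat 3.2.3 for later steps. Cells were kept by the limits given in the study's methods (WT 1500 to 6500 genes and 5500 to 40000 UMIs, KO 1200 to 5500 genes and 3000 to 30000 UMIs, up to 10% mitochondrial), which left 24547 cells. They were scaled to 10000 counts per cell, and 2000 variable genes without the 10 genes, 30 principal components and 20 neighbours entered Leiden clustering at resolution 0.5, or 1.0 for finer clusters (scanpy 1.11.5, leidenalg 0.10.2, Python 3.11.15, numpy 2.4.6, scipy 1.17.1, pandas 2.3.3). A cluster was named when at least 3 listed markers passed limits on share of cells and fold that were set after the clusters were seen. The study's own cell names were not used here, so classes may differ from its classes. Doublets were called per library with Scrublet at an expected rate of 8% and were kept unless stated. UMIs were summed per class and library and divided by the class total (CPM), with exact Poisson intervals for levels, exact conditional intervals for ratios and Clopper-Pearson intervals for shares of cells. A 3' UMI count depends on gene structure, so levels were compared within a gene, and different genes only as ratios followed across classes. Gene names and coordinates came from GENCODE M21, in which 27722 of 27998 gene IDs (99.0%) were found, transcript similarity from blastn 2.17.0, and promoters from RefSeq. Calls needed 100 UMIs over both sides. All 10 genes were named, companion genes with at least 100 UMIs in epithelium-like and pregranulosa-like cells could be named, and the 10 genes most like the mean were named by correlation. Genes, lists and comparisons were chosen with earlier results of these data known. The scripts were tested on simulated counts. Alternatives were other cell limits, all barcodes, no doublets, clustering with the 10 genes, a finer resolution, thinning, other scaling, a mean over cells, and other limits of size and UMIs. Leaving out the epithelial sub-clusters with germ or stromal genes, germ cell cluster 9, or the WT cell with most Krt19 was chosen after seeing the data. Not every value of the marker lists is reported here.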

Additional observations from a re-analysis of the deposited data

Results flagged for a closer look

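Krt8 and Krt18 went in opposite directions between the classes. Krt8 was higher in KO by 0.20 on the log2 scale in pregranulosa and by 0.54 in stroma but was at -0.092 in epithelium, and Krt18 was higher by 0.31 and 0.55 but at -0.12 in epithelium. Without the called doublets Krt8 was at 0.02 and Krt18 at -0.13 in stroma, so for Krt18 the stromal direction turned. Krt19 was at 1.65 in stroma, -0.26 in epithelium and -0.34 in pregranulosa. With 1 library per genotype the differences between classes were not tested.

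Krt18 was also seen in germ cell cluster 9 (319 WT and 652 KO cells), which was part of the germ-like reference class and was not compared on its own. It was measured there at 21.8 CPM in WT (179 UMIs) and 14.6 CPM in KO (160 UMIs), beside 0.836 to 3.50 CPM in the other 6 germ cell clusters of both libraries. Krt8 was 2.81 and 4.37 CPM in the same cells, Krt7 0.976 and 2.27 CPM, and Lrrn4 3.66 and 3.00 CPM. Of the cluster's cells 1.57% in WT and 5.98% in KO were called doublets.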

How the results depend on the processing

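No paired analysis was possible because there was 1 library per genotype with no replicate numbers, and for the same reason no replicate could be left out. The count of the 10 genes past the limit of size between KO and WT was 0 in epithelium, pregranulosa and stroma under all 33 combinations of class and alternative. A gene of low level cannot reach this limit, so for stroma and for the surface genes of low level the count was fixed beforehand. Of 66 alternative counts of genes past 2-fold between classes, 62 were within 1.5 times the main count. With every cell thinned to 3000 UMIs, 5 genes rather than 9 were higher in WT epithelium than in pregranulosa and 5 rather than 9 than in stroma, since only 5 then reached 100 UMIs. With no minimum of UMIs, 9 genes in WT and 10 in KO were higher in pregranulosa than in stroma, genes with a few UMIs included. Without thinning the median number of genes per cell was 5 in KO epithelium and 2 in WT and 2 in KO pregranulosa. Over all genes, the same cell limits for both libraries raised the count past the limit of size from 20 to 69 in epithelium, from 27 to 94 in pregranulosa and from 41 to 178 in stroma, a limit of 0.5 left 3, 1 and 3, and the stromal count was 14 without doublets, 22 after thinning and 20 as a mean over cells. The cause was not tested. Of the log2 KO/WT ratios 231 of 248 stayed within their counting interval, and of those between classes 392 of 474, while 82 moved beyond it, 19 with all barcodes, 16 with the same cell limits, 15 after thinning and 14 without doublets. Those between classes kept their sign apart from Upk3b in pregranulosa against stroma, at -0.029 in WT and -0.68 in KO with the same cell limits. In KO pregranulosa against stroma the log2 ratio of Krt19 ran from 1.46 with the same cell limits to 3.67 without doublets, and that of Krt8 from 3.34 with the same cell limits to 4.94 with all barcodes. The signs of the epithelial ratios of Krt7, Krt8, Krt18, Krt19, Upk1b and Muc16 held under all 9 alternatives, while those of Upk3b, Msln, Lrrn4 and Gpm6a did not. In stroma the log2 ratio of Krt18 ran from -0.13 without doublets to 1.00 with the same cell limits, and that of Krt8 from 0.02 to 0.87.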

Other observations

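Among the 76 WT and 240 KO cells of the endothelium-like, immune-like and erythroid-like clusters, Krt8 was measured at 13.8 CPM in WT and 21.3 CPM in KO, Krt18 at 13.8 and 32.6 CPM and Krt19 at 14.6 and 22.4 CPM. Upk3b was at 0 UMIs in WT and at 9.58 CPM (27 UMIs) in KO. Of these cells 0% in WT and 12.1% in KO were called doublets, and their part in the values was not tested.

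Lgr5 was measured at 116 CPM in WT and 112 CPM in KO epithelium-like cells, beside 117 and 106 CPM in the pregranulosa-like cells with Lgr5 and 3.58 and 5.57 CPM in stroma. Markers on the pregranulosa list summed to 1175 and 1185 CPM in epithelium and 3215 and 3051 CPM in pregranulosa.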
